A study of Caenorhabditis elegans with 14 samples.

Results

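Whole adult Caenorhabditis elegans of the strain spe-9 were compared at Day 7 of adulthood on paraquat and at Day 0, by RNA sequencing. The comparison takes 3 of the 7 libraries of the series, 2 at Day 0 and 1 at Day 7, which are 6 of its 14 sequencing samples because every library was run 2 times. Of 41560 gene symbols in the values, 12395 were kept, namely those whose longest transcript had 200 bases or more, whose FPKM averaged 1 or more across the 3 libraries and which were at an exact 0 in none of them. FPKM counts fragments relative to transcript length and to all mapped fragments, and was added up over the transcripts of a gene.

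All animals carried spe-9(hc88), a temperature-sensitive mutation that leaves hermaphrodites sterile at 23.5 °C, the temperature at which they were grown. The Day 0 animals were untreated young adults. The Day 7 animals had been kept since Day 0 on 5 mM paraquat (methyl viologen), a compound that produces superoxide inside cells, and on 325 µM FUDR (5-fluorodeoxyuridine), which blocks DNA synthesis and so the growth of progeny. Age, paraquat and FUDR therefore change together in this comparison and cannot be told apart. Day 7 was chosen as the median survival time of these animals on paraquat. The Day 7 group is a single library with no replicate, while the Day 0 libraries are labelled as replicates. The mutant mir-60;spe-9, which in addition lacks the microRNA gene mir-60, was sampled with the same treatments in 2 libraries at Day 0 and 1 at Day 7, and its values are set beside those of spe-9 at the end.

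In C. elegans, adult life begins with a burst of oocyte and yolk production and with a cuticle completed at the last molt, and it continues with a slow loss of muscle structure. Paraquat feeds electrons to oxygen, and the superoxide it makes is removed by superoxide dismutases, while damaged proteins are met by heat shock proteins, the proteasome and autophagy. Conjugating enzymes such as glutathione S-transferases, UDP-glucuronosyl transferases and cytochrome P450s handle foreign and oxidized compounds. The genes below are ordered by these roles.

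The FPKM of all transcripts added up to between 1627514 and 2124657 per library over the 7 libraries, and the 10 most abundant transcripts held 12% to 15.3% of it. In spe-9 this total was 1741665 and 1627514 at Day 0 and 2043578 at Day 7. The values were not rescaled for this in the main comparison. Depth relative to the first Day 0 library, read from the value that a single read is worth, was 0.947 in the other Day 0 library and 0.975 at Day 7, so these libraries were of similar depth. The labelled tissue is the whole body, and defining markers of intestine, muscle, pharynx, epidermis, neurons and germline were all above 0 at Day 0. Those of males summed to 0.649, 0.439 and 2.01 FPKM over 5 genes. No gene differs by design between Day 0 and Day 7, so no targeted gene could check the labels. The 3 reference genes of the study's own qRT-PCR, ama-1, cdc-42 and pmp-3, did not pass the test described next, with log2 differences of 0.10, 0.27 and -0.41.

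A gene is called higher or lower where its log2(FPKM + 0.5) at Day 7 lay more than 1, that is 2-fold, beyond the nearer of the Day 0 libraries. It is said to have risen or fallen where it also had a limma adjusted p under 0.05, from a fit to all 7 libraries in which the lone Day 7 library is assumed to vary like the Day 0 pairs. Day 7 was higher in 2120 of the 12395 genes (17.1%) and lower in 1277 (10.3%). With the limma test, 2086 genes rose (16.8%) and 1251 fell (10.1%), and these shares are the background for every list below. Rises made up 62.5% of the calls, and 52% after quantile normalization, which moved the median log2 difference of all genes from 0.09 to -0.04. By fold alone, higher genes made up 62.4% of the calls, 56.3% with a mean FPKM of at least 10 and 64.7% with no minimum. The excess thus depended on the filter for low FPKM too. At any size of difference, Day 7 lay above both Day 0 libraries in 6194 genes (50%) and below both in 5213 (42.1%). Values of the days that do not overlap are therefore the rule among all genes. Between the Day 0 libraries the median absolute log2 difference was 0.14, and 164 genes differed more than 2-fold. An exact permutation test of 1 library against 2 cannot give a p below 0.333, so the limma p-values rest on the shared spread. Fold changes on the log2(FPKM + 0.5) scale understate the change of genes with low FPKM.

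**Figure D1:**
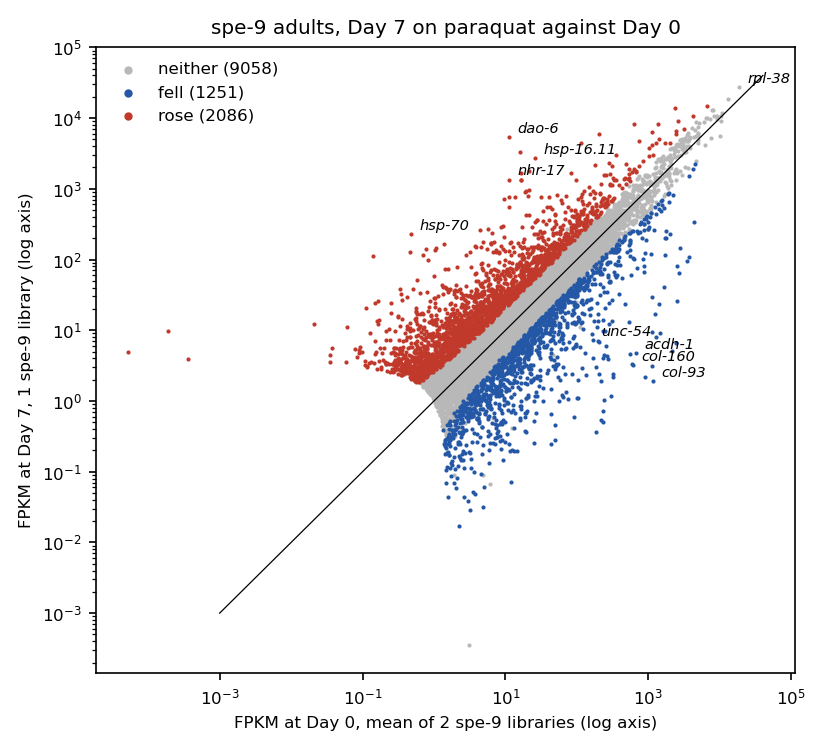
FPKM of each of the 12395 genes at Day 7 (vertical, 1 library) against the mean of the 2 Day 0 libraries (horizontal), both on log axes, with the line of equal values. The 2086 genes that rose lie above the line and the 1251 that fell below it, with dao-6 and hsp-70 far above and col-93, col-160 and acdh-1 far below.

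The 15 largest rises, ranked by the distance to the nearer Day 0 library, contained small heat shock and Hsp70 genes, a nuclear receptor, a collagen and several genes without a described role. The largest was dao-6, whose name stands for overexpression in dauer larvae and aging adults. Its FPKM were 9.70 and 12.8 at Day 0 and 5397 at Day 7, on chromosome III at positions 9735267 to 9735943 of WS220. The Day 7 library was thus far above both Day 0 libraries, on the log2 scale by 8.67 from the nearer and by 8.86 from their mean. The nuclear receptor gene nhr-17, on chromosome X at 12664171 to 12667780, had 10.8 and 11.5 FPKM at Day 0 and 1350 at Day 7. The collagen gene col-130 had 0.407 and 0.510 FPKM at Day 0 and 127 at Day 7, opposite to most collagens. C27H5.6 stood at 0.185 and 0.0975 FPKM and then at 112, and F22B5.4 at 0.559 and 0.983 and then at 143. The files give no role for either gene, and in both the Day 7 value lay far above both Day 0 values. Like col-130, they were under 1 FPKM in both Day 0 libraries. These genes were kept only through the Day 7 library, so their Day 7 values had to lie above. Among short genes, B0205.14 went from 14.9 and 17.8 FPKM to 1686, ZC250.4 from 17.1 and 25.8 to 1813, and C54F6.17 from 0.674 and 0.711 to 115. The noncoding RNA rpr-1 had 15.2 and 17.1 FPKM at Day 0 and 3293 at Day 7. The libraries were made with a poly-A kit, whose capture of noncoding RNA was not measured. The noncoding entries C38C6.7 and C38C6.8 had 138 and 144 FPKM at Day 7 and at most 1.17 at Day 0. C38C6.7 is listed at several places in the genome, so its values are uncertain. F26E4.14 reached 167 FPKM at Day 7 through an entry of 109 bases. Without entries under 200 bases its log2 difference was -0.46, and the call was lost.

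The 15 largest falls were 12 cuticle collagens, the hedgehog-related gene grd-3, the folate transporter gene folt-2 and the undescribed gene F46F2.3. The gene folt-2 had 254 and 221 FPKM at Day 0 and 1.03 at Day 7. F46F2.3 had 255 and 201 FPKM at Day 0 and 0.716 at Day 7. In all 15 the Day 7 library lay more than 7 on the log2 scale below the nearer Day 0 library. By contrast, 9 of the 10 genes with the highest mean FPKM did not pass. Of these, rpl-38, Y37E3.8, rps-25, rpl-31, rpl-41 and rpl-43 encode or resemble ribosomal proteins, eef-1A.1 is the translation elongation factor, and R09B3.3 and F23A7.8 are less well described. The most abundant gene kept, rpl-38, had 20104 and 17387 FPKM at Day 0 and 27752 at Day 7. The exception was rps-27, described with translation below.

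The lists of genes were taken by symbol and were chosen with earlier results of these data known. Their counts are given beside the background shares and without a test of the list. A member that passed the filter on low FPKM only through the group in which it is high had to differ, so the counts describe the members kept. How many such members each list holds was not counted.

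**Figure D2:**
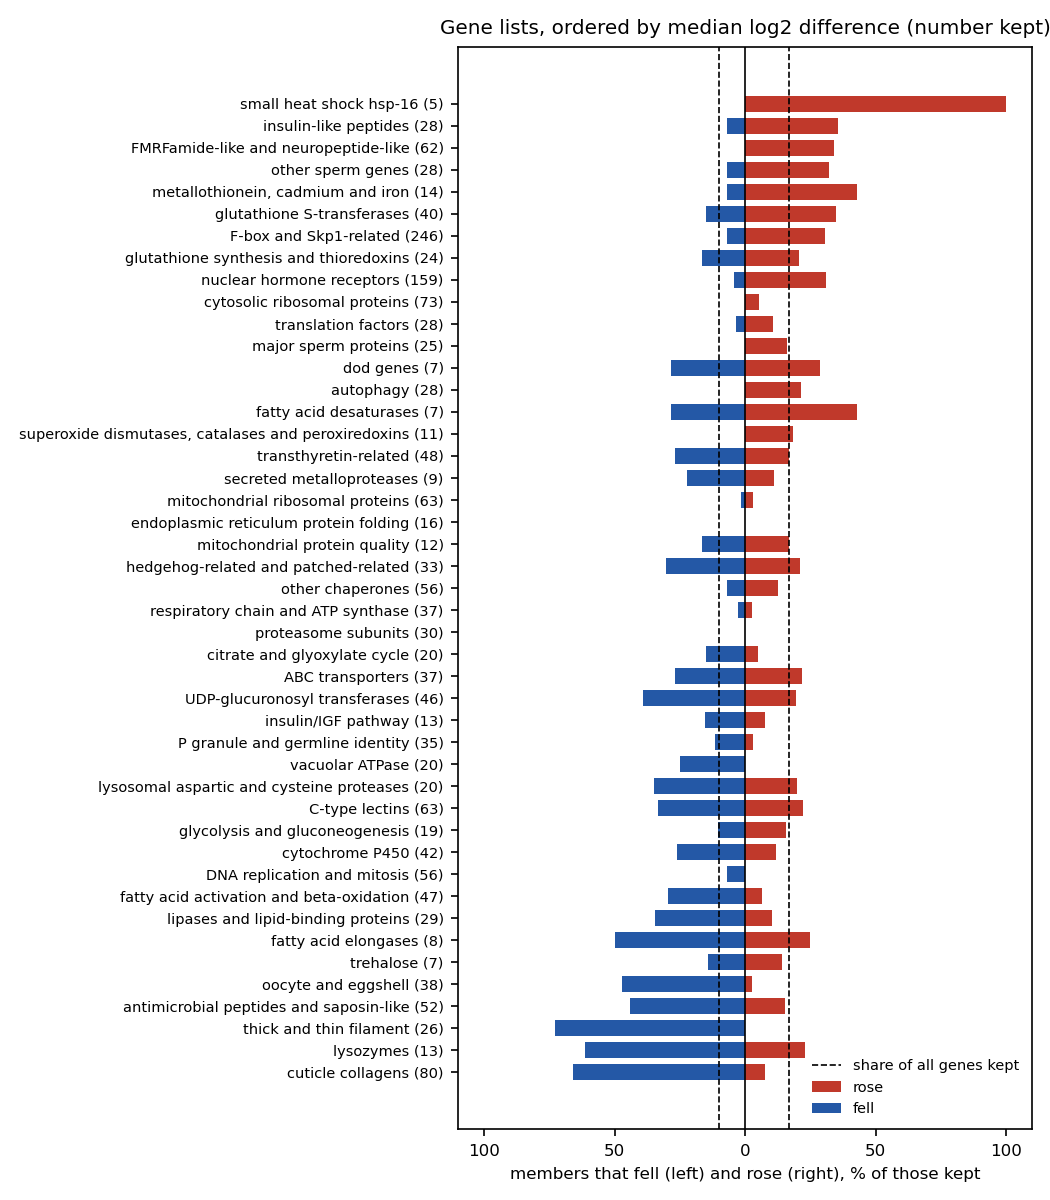
Share of the members of each gene list with 5 or more kept that fell (blue bars, to the left) and rose (red bars, to the right) at Day 7 in spe-9, in percent of the members kept, whose number stands in brackets. Dashed lines mark the 10.1% and 16.8% of all genes; the hsp-16 genes lie farthest to the right and thick and thin filament genes and cuticle collagens farthest to the left.

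The small heat shock genes had the largest median rise of the 47 lists. All 5 kept hsp-16 genes, small heat shock proteins that hold unfolded proteins and are nearly silent in unstressed worms, rose, with a median log2 difference of 6.32 beside 0.09 for all genes. The gene hsp-16.2, on chromosome V at 1804440 to 1804923, had 9.62 and 9.72 FPKM at Day 0 and 717 at Day 7. Its neighbour hsp-16.41, at 1805270 to 1805759, had 10.6 and 12.1 FPKM and then 756. At a separate site on the same chromosome, hsp-16.11 had 21.9 and 29.7 FPKM at Day 0 and 2748 at Day 7. The differences of the 5 lay between 6.0 and 6.72 on the log2 scale. The genes hsp-16.48 and hsp-16.49 are near-identical copies with 1322 and 1321 FPKM at Day 7, and hsp-16.11 is listed at 2 places, so reads within each of these pairs cannot be assigned.

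Other chaperones were divided. Of 56 kept, 7 rose and 4 fell, 12.5% and 7.14%, with a median of -0.06. The inducible gene hsp-70, on chromosome I at 9320404 to 9322473, rose most, from 0.294 and 0.664 FPKM to 229. It was kept only through the Day 7 library, so it had to be higher there. Its relatives F44E5.4 and F44E5.5, which share their reads, stood at 3.24 and 9.13 FPKM at Day 0 and at 171 at Day 7. The constitutive Hsp70 gene hsp-1 had 1584 and 2121 FPKM at Day 0 and 2840 at Day 7, and did not pass. The cytosolic Hsp90 gene daf-21 rose from 1538 and 1823 FPKM to 4443, a call not made after quantile normalization, and hsp-12.6, a small heat shock gene and known target of DAF-16, from 8.84 and 7.49 to 128. In the other direction hsp-12.1 fell from 12.8 and 6.31 FPKM to 1.03, and hsp-25, a small heat shock gene not known for heat induction, from 193 and 182 to 65.7. The most abundant member, sip-1, a small heat shock gene of the germline and embryo, had 6065 and 6295 FPKM at Day 0 and 4132 at Day 7 without passing 2-fold. The regulator of the response, hsf-1, stood at 73.9 and 75.3 FPKM and then at 49.7, a log2 difference of -0.58.

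No chaperone of the endoplasmic reticulum passed the test. None of the 16 kept genes of this list rose or fell, and their median difference was -0.03. Their differences lay between -1.05 and 0.86. The reticulum chaperone gene hsp-4, the worm BiP and a usual marker of the unfolded protein response, had 418 and 478 FPKM at Day 0 and 215 at Day 7, a difference of -1.05 that lay just inside 2-fold of the nearer library. Without the first Day 0 library hsp-4 was called, at -1.15. Calreticulin, crt-1, went the other way, with 1629 and 1582 FPKM and then 2905. After quantile normalization 1 gene of the list fell. Of the 12 genes of mitochondrial protein quality, 2 rose and 2 fell. The mitochondrial Hsp70 gene hsp-6 rose from 261 and 349 FPKM to 1133, whereas its partner hsp-60, the other usual marker of the mitochondrial unfolded protein response, fell from 242 and 289 to 88.1. The import subunit gene timm-23 rose from 155 and 136 FPKM to 1056, and dve-1, a transcription factor of that response, fell from 19.7 and 20.3 to 6.70. The fall of hsp-60 was not called when the transcript with the highest mean FPKM stood for the gene. All 30 proteasome subunit genes stayed within 2-fold of a Day 0 library, with a median of -0.10.

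**Figure D3:**
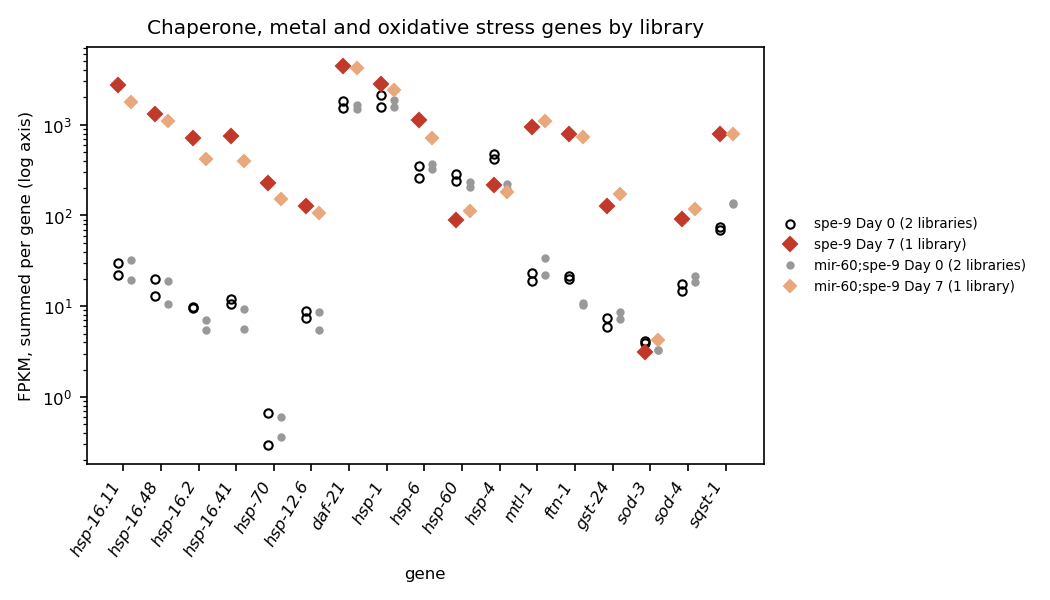
FPKM of chaperone, metal-response and oxidative stress genes in each library, on a log axis: open black circles for the 2 spe-9 Day 0 libraries, red diamonds for spe-9 Day 7, and smaller grey circles and orange diamonds for mir-60;spe-9. The hsp-16 genes, hsp-70, mtl-1 and ftn-1 are separated from Day 0 by more than a factor of 10, while sod-3 is at 4.09 and 3.95 FPKM at Day 0 and 3.11 at Day 7.

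Among 11 superoxide dismutases, catalases and peroxiredoxins, which remove superoxide and peroxide, 2 rose (18.2%, beside 16.8% of all genes) and none fell, with a median of 0.12. The cytosolic sod-1 had 230 and 211 FPKM at Day 0 and 155 at Day 7, and the mitochondrial sod-2 had 239 and 225 and then 252. The mitochondrial gene sod-3, a standard reporter of DAF-16 activity, had 4.09, 3.95 and 3.11 FPKM. None of these 3 passed, and sod-3 was lower at Day 7 than in either Day 0 library. The extracellular sod-4 rose from 17.5 and 14.8 FPKM to 91.3, a log2 difference of 2.47 (limma SE 0.15, adjusted p = 0.000462), and the weakly expressed cytosolic sod-5 from 0.432 and 0.399 to 3.54. With both Day 0 values under 1 FPKM, sod-5 was kept only through the Day 7 library, so it had to be higher there. The most abundant member, the peroxiredoxin prdx-2, had 1804, 1756 and 1746 FPKM.

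In the thioredoxin and glutathione list 5 of 24 rose and 4 fell. The mitochondrial thioredoxin gene trx-2 rose from 175 and 149 FPKM to 547, and the cytosolic thioredoxin reductase trxr-1 from 84.4 and 84.7 to 190. On the other side, msra-1, a reductase of oxidized methionine, fell from 716 and 677 FPKM to 75.7, and the glutathione peroxidase gene gpx-5 from 44.8 and 41.6 to 3.98. The gene of the rate-limiting enzyme of glutathione synthesis and SKN-1 target gcs-1 had 51.4 and 59.7 FPKM at Day 0 and 70.1 at Day 7, and did not pass. Another SKN-1 target, gst-4, had 22.5 and 20.7 FPKM and then 44.3, with a difference of 1.02 from the Day 0 mean, and stayed inside 2-fold of the nearer library. Without the first Day 0 library gst-4 was called, at 1.08.

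Among the conjugating enzymes, glutathione S-transferases rose more often than they fell, and the other families fell more often than they rose. Of 40 kept glutathione S-transferase genes 14 rose (35%) and 6 fell (15%). The largest rise was gst-24, from 7.50 and 5.97 FPKM to 127, and the most abundant member that rose was gst-1, from 452 and 445 to 1386. The largest fall was gst-26, from 18.7 and 14.8 FPKM to 0.989. UDP-glucuronosyl transferases rose in 9 of 46 and fell in 18 (39.1%), with ugt-21 the largest rise, from 1.17 and 1.11 FPKM to 30.6, and ugt-22 the largest fall, from 54.8 and 43.5 to 2.87. The most abundant of them, ugt-58, rose from 29.1 and 27.9 FPKM to 71.8. Of 42 cytochrome P450 genes 5 rose and 11 fell. The family's largest fall was cyp-35A2, an enzyme known for induction by xenobiotics, from 29.8 and 22.6 FPKM to 1.17. Its largest rise was cyp-13A8, from 0.0132 and 0.0280 FPKM to 12.2. The gene cyp-13A8 was kept only through the Day 7 library, so it had to be higher there. ABC transporters rose in 8 of 37 and fell in 10, among them the multidrug transporter pgp-9, up from 4.85 and 4.24 FPKM to 24.7, and the peroxisomal transporter pmp-5, down from 47.1 and 40.9 to 0.655.

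Metal-response genes rose in 6 of 14. The metallothionein gene mtl-1, which binds heavy metals and is 1 of 6 kept intestinal markers, had 23.3 and 18.9 FPKM at Day 0 and 947 at Day 7, at positions 6691468 to 6691815 of chromosome V. The ferritin gene ftn-1, for iron storage, had 20.1 and 21.8 FPKM and then 785. The Day 7 library thus lay 5.46 and 5.20 above the Day 0 mean on the log2 scale for these genes (limma adjusted p = 0.000324 and 5.73e-05). Of the other intestinal markers none rose, and act-5 and ges-1 fell, with differences of -3.59 and -1.20. The cadmium-responsive gene cdr-4 rose from 30.1 and 26.6 FPKM to 203, and the nuclear metal-responsive gene numr-1 from 5.47 and 5.29 to 64.1. The only fall was hrg-6, from 58.4 and 41.3 FPKM to 0.460, and this call rests on a short entry, since without entries under 200 bases the gene was not past 2-fold.

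The cuticle list held the 6 largest falls in the data. Collagens form the worm's exoskeleton and are made in waves around each molt. Of 175 symbols in the list 80 were kept, of which 53 fell (66.2%) and 6 rose (7.5%), with a median log2 difference of -2.51. The median was -5.9 among collagens with a mean FPKM of at least 10 and -0.61 with no minimum. The summed FPKM of the 80 was 33690 and 31432 at Day 0 and 1037 at Day 7. The largest fall was col-93, on chromosome III at 10984514 to 10985485, with 1281 and 1058 FPKM at Day 0 and 1.91 at Day 7. The most abundant collagen, col-122, had 3764 and 3703 FPKM and then 107, and its neighbour in rank col-119 had 3521 and 3349 and then 95.6. The adult-specific collagen col-19, often used as an adult epidermal marker, had 1402 and 1159 FPKM and then 8.10, a log2 difference of -7.21 (limma SE 0.19, adjusted p = 8.7e-05). Values of the same kind were found for col-20, which went from 2216 and 1998 FPKM to 5.01, and for col-101, which went from 2554 and 2328 to 6.63. The other collagens among the largest falls, col-80, col-124, col-94, col-92, col-98, col-160, col-178 and col-179, were at 0.366 to 9.08 FPKM at Day 7. In the opposite direction, besides col-130, dpy-5, a collagen of body shape made at larval molts, rose from 0.245 and 0.0861 FPKM to 12.1. Both col-130 and dpy-5 were kept only through the Day 7 library, so they had to be higher there. Of the markers of larvae 3 of 5 kept fell and none rose. Those that fell were the collagens col-10 and col-12, and mlt-11. The markers mlt-10 and nas-37, with differences of 0.09 and -0.58, were not called.

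Hedgehog-related and patched-related genes, many of them expressed in the epidermis and tied to molting, were divided, with 7 of 33 up and 10 down. The falls were the larger ones. The gene grd-3 had 224 and 212 FPKM at Day 0 and 0.539 at Day 7, and grd-5 had 598 and 521 and then 4.56. The largest rise was in the patched-related gene ptr-10, which had 0.434 and 0.274 FPKM and then 2.30. It was kept only through the Day 7 library, so it had to be higher there. Among the 4 kept epidermal markers, the collagens col-19 and dpy-7 fell. The gene lin-26, an epidermal transcription factor, had 74.7, 76.6 and 90.3 FPKM, elt-3 had 11.4, 9.07 and 6.69, and neither passed. Without the first Day 0 library dpy-7 had a difference of -2.18 and a limma adjusted p of 0.0531.

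Genes of the thick and thin filaments of muscle fell. Of 26 kept, 19 fell (73.1%) and none rose, with a median of -1.46. The myosin heavy chain gene unc-54, the main motor of body wall muscle, had 163 and 172 FPKM at Day 0 and 7.25 at Day 7, a log2 difference of -4.44 (limma SE 0.09, adjusted p = 6.24e-05). Paramyosin, unc-15, fell from 228 and 232 FPKM to 14.0, and the troponin I gene unc-27 from 541 and 520 to 13.2. The troponin T gene tnt-2 fell most, from 223 and 218 FPKM to 1.90. The troponin C gene pat-10 fell from 1901 and 1475 FPKM to 199, and the most abundant member by mean FPKM, the actin gene act-2, from 1423 and 1589 to 681. The actin genes act-1 and act-3 are near copies of each other, so their values are uncertain. Not all members outside body wall muscle fell. The pharyngeal myosin gene myo-2 had 12.3, 11.6 and 12.2 FPKM, and mlc-4, the light chain of nonmuscle myosin, had 623, 609 and 935, the largest difference above 0 in the list. Neither passed. On the marker lists 4 of 5 body wall muscle markers fell, against 0 of 5 pharyngeal and 0 of 7 neuronal ones. The pharyngeal markers were not all level, with log2 differences of -0.71 for tnt-4, -0.45 for myo-1 and 0.04 for myo-2. The 5 pharyngeal markers summed to 50.2 and 43.3 FPKM at Day 0 and 36.1 at Day 7. The 4 body wall muscle markers that fell, myo-3, unc-54, unc-15 and unc-27, are themselves filament genes, so this count is not separate from the result above. The other body wall muscle marker, hlh-1, had 3.80 and 1.94 FPKM at Day 0 and 3.13 at Day 7 and did not pass. In whole worms a loss of cells of a type and a loss of RNA per cell cannot be told apart, and the counts of cells were not measured.

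**Figure D4:**
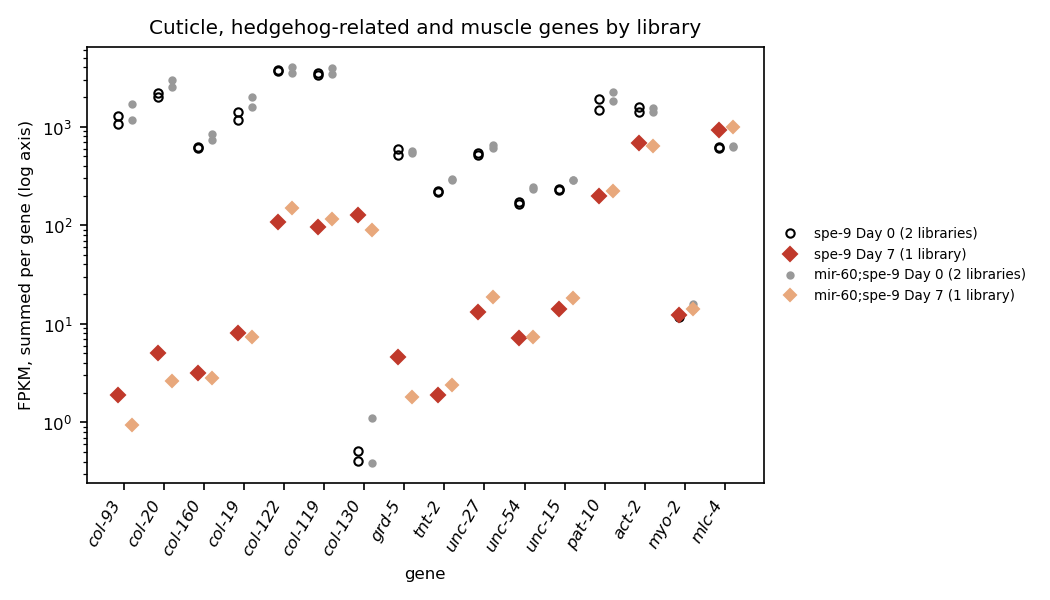
FPKM of cuticle collagen, grd-5 and muscle filament genes in each library, on a log axis, with the symbols of the stress gene plot. Collagens, grd-5 and body wall muscle genes are lower at Day 7 than in either Day 0 library of the same strain, while col-130 is higher and the pharyngeal gene myo-2 lies at 12.3, 11.6 and 12.2 FPKM in spe-9.

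Vitellogenins are yolk proteins made in the intestine and taken up by oocytes. Of 6 vitellogenin symbols only 2 could be kept, and both fell. The gene vit-3 had 1872 and 2096 FPKM at Day 0 and 230 at Day 7, and vit-1 had 569 and 648 and then 105. The genes vit-4, vit-5 and vit-6 were listed at an exact 0 in both Day 0 libraries and at 331, 2030 and 891 FPKM at Day 7. An exact 0 in these values can be a failed estimate, because genes used by every cell are also listed at 0 in some library of the series, so no difference is given for them. Vitellogenins are also near copies of each other.

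Of 38 oocyte and eggshell genes 18 fell (47.4%) and 1 rose. The yolk receptor gene rme-2 had 342 and 413 FPKM at Day 0 and 94.7 at Day 7. The eggshell gene cbd-1 had 470 and 623 FPKM and then 172, and the oocyte maturation factor oma-2 had 314 and 342 and then 129. The largest fall was cpg-9, a chondroitin proteoglycan gene, from 348 and 264 FPKM to 13.5. The exception, perm-4, which acts in the permeability barrier of the eggshell, rose from 1910 and 2046 FPKM to 4403, although after quantile normalization it was not called. Of 35 genes of P granules and germline identity 4 fell and 1 rose, close to or under the background shares. The helicase gene glh-2 fell from 51 and 64.8 FPKM to 17.8, and pgl-3 from 94.2 and 118 to 37.5. The synapsis gene syp-1 rose from 43.4 and 47.7 FPKM to 101. The 5 germline markers had summed FPKM of 626 and 734 at Day 0 and 470 at Day 7, and none passed.

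Sperm genes were at low FPKM in all 3 libraries. The 25 kept major sperm protein genes summed to 40.5 and 39.5 FPKM at Day 0 and to 63.3 at Day 7. Of these, 4 rose (16%, beside 16.8% of all genes). Their median difference was 0.34, and 0.02 after quantile normalization. The largest rise of these was msp-142, from 0.513 and 0.541 FPKM to 2.84. It was kept only through the Day 7 library, so it had to be higher there. Major sperm protein genes are near-identical copies, so reads are shared among them. Of 28 other sperm genes 9 rose and 2 fell, the largest rise being spe-47, from 4.00 and 1.31 FPKM to 18.5, a call that was lost without entries under 200 bases. Of 8 embryonic markers 4 were kept, of which 2 rose and 1 fell. The endoderm specifier end-1 rose from 0.772 and 0.367 FPKM to 2.06. The mesendoderm specifier med-2 rose from 0.112 and 0.178 FPKM to 3.48. Both genes were under 1 FPKM in each Day 0 library. They passed the filter on low FPKM only through the Day 7 library, so they had to be higher there. The marker tbx-37 fell from 26 and 26.4 FPKM to 7.07, and pes-10, with a difference of -0.05, did not pass. Without the second Day 0 library end-1 had a difference of 1.01 and a limma adjusted p of 0.0509.

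Few genes of DNA replication and mitosis passed the test. Of 56 kept none rose and 4 fell (7.14%), with a median of -0.43. The ribonucleotide reductase gene rnr-2 had 1257, 1173 and 1096 FPKM, and the replication clamp gene pcn-1 had 1045, 1087 and 917. The kinesin gene klp-15, needed for the meiotic spindle, fell from 108 and 115 FPKM to 41.8.

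Most genes of translation did not pass. Of 73 cytosolic ribosomal protein genes 4 rose and none fell, with a median of 0.57 that was 0.08 after quantile normalization. The abundant gene rps-27 had 6852 and 6181 FPKM at Day 0 and 14739 at Day 7, a call that quantile normalization removed. The largest difference was that of rpl-24.2, from 147 and 128 FPKM to 590. Of 63 mitochondrial ribosomal protein genes 2 rose and 1 fell, with a median of -0.02. Among 28 translation factors 3 rose and 1 fell. The elongation factor gene eef-1A.2 rose from 1144 and 1136 FPKM to 4211 while eef-1A.1 had 8660, 9552 and 9571. The initiation factor gene iff-2 rose from 386 and 322 FPKM to 1324, and inf-1 fell from 887 and 963 to 374.

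Lysosomal genes moved both ways. Of 20 aspartic and cysteine proteases 4 rose and 7 fell (35%). The aspartic proteases asp-6 and asp-1 were the most abundant of the list at Day 7, asp-6 with 1223 and 1048 FPKM at Day 0 and 6344 at Day 7, and asp-1 with 777 and 705 and then 4807. The cathepsin B-like gene cpr-1 fell from 255 and 245 FPKM to 9.91, cpr-6 from 1010 and 995 to 287, and the aspartic protease asp-13 most, from 74.8 and 50.2 to 1.23. The cathepsin L gene cpl-1 had 2525, 2551 and 1678 FPKM and stayed within 2-fold. Of 20 subunits of the vacuolar proton pump, which acidifies the lysosome, none rose and 5 fell (25%). The subunit gene vha-3 fell from 217 and 205 FPKM to 69.7 and vha-11 from 148 and 147 to 56.1. Autophagy genes rose in 6 of 28 (21.4%, beside 16.8% of all genes), and none fell. Their median difference was 0.15, beside 0.09 for all genes, and 0.09 beside -0.04 after quantile normalization. Under that normalization fewer autophagy genes rose, in a share near that of all genes. The largest rise was sqst-1, the sequestosome gene that carries ubiquitinated cargo to autophagosomes, from 68.8 and 74.0 FPKM to 792, a log2 difference of 3.46 (limma SE 0.09, adjusted p = 8.28e-05). The Beclin gene bec-1 rose from 82.5 and 69.4 FPKM to 178. The most abundant member, the autophagosome protein gene lgg-1, had 3010, 2585 and 4366 FPKM and did not pass.

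Most genes of energy metabolism did not pass the test. In the respiratory chain and ATP synthase list 1 of 37 rose and 1 fell, namely cyc-2.1, encoding cytochrome c, up from 4335 and 3960 FPKM to 10599, and atp-2, the catalytic subunit of ATP synthase, down from 1190 and 1314 to 554. After quantile normalization the rise of cyc-2.1 was not called. In the citrate cycle 1 of 20 rose and 3 fell. Citrate synthase, cts-1, rose from 492 and 558 FPKM to 1382, and malate dehydrogenase, mdh-2, fell from 503 and 579 to 162. The isocitrate dehydrogenase gene idh-1, the most abundant of the list, had 3925, 3332 and 1939 FPKM, and without the second Day 0 library it was called, at -1.02. Among 19 glycolysis genes 3 rose and 2 fell, with the aldolase gene aldo-1 up from 79.6 and 83.9 FPKM to 505 and lactate dehydrogenase, ldh-1, up from 81.8 and 83.7 to 284. In trehalose metabolism the synthase gene tps-1 rose from 6.58 and 7.49 FPKM to 21.4 and the trehalase gene tre-1 fell from 92.5 and 87.2 to 42.1.

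In the lists of fat breakdown, elongation and lipid binding more genes fell than rose. Of 47 genes of fatty acid activation and beta-oxidation 14 fell (29.8%) and 3 rose. The acyl-CoA dehydrogenase gene acdh-1, which acts on propionate when vitamin B12 is low, had 725 and 627 FPKM at Day 0 and 4.76 at Day 7, on chromosome I at 6497455 to 6499466. The enoyl-CoA hydratase gene ech-6 fell from 522 and 466 FPKM to 127. The acyl-CoA synthetase gene acs-2, a known target of the receptor NHR-49, rose from 47.4 and 55.1 FPKM to 239. The desaturases, which make unsaturated fatty acids, went separate ways within a small family. The stearoyl-CoA desaturase genes fat-6 and fat-7 have the same known activity, and fat-6 rose from 484 and 481 FPKM to 2261 while fat-7 fell from 74.8 and 52.8 to 2.98. The palmitoyl-CoA desaturase gene fat-5 fell from 66.7 and 69.2 FPKM to 17.4, and fat-2, the most abundant, rose from 2559 and 2359 to 5889, although it was not called after quantile normalization. Of 8 elongase genes 2 rose and 4 fell, with elo-2 down from 120 and 108 FPKM to 24.7. Lipases and lipid-binding proteins fell in 10 of 29 (34.5%) and rose in 3. The lipid-binding gene lbp-1 rose from 370 and 269 FPKM to 1409, lbp-8, a lysosomal lipid chaperone, fell from 5.32 and 3.96 to 0.179, and the most abundant member far-2 had 10349, 9645 and 5488 without passing.

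In most lists of defence genes more members fell than rose. Many of these genes, like those of fat metabolism and yolk, are expressed in the intestine, of whose 6 kept markers 1 rose and 2 fell, with act-5 at -3.59, ges-1 at -1.20, ifb-2 at -0.97, elt-2 at -0.58 and elt-7 at 0.09. The summed FPKM of these markers was 271 and 250 at Day 0 and 1009 at Day 7, most of the latter from mtl-1 with 947. Their part in the differences of intestinal genes was not tested. Of 13 lysozymes 8 fell (61.5%) and 3 rose. The invertebrate-type lysozyme gene ilys-5 had 1243 and 1002 FPKM at Day 0 and 9.56 at Day 7, while lys-7, a lysozyme gene regulated by DAF-16, rose from 317 and 255 to 1136. In ilys-3 the values were 0.593, 1.16 and 26 FPKM. Of 52 antimicrobial peptide and saposin-like genes 23 fell (44.2%) and 8 rose. The saposin-like gene spp-17 fell from 2968 and 2124 FPKM to 80.0 and spp-4 from 86.2 and 65.6 to 1.06. The epidermal peptide gene nlp-33, induced by fungal infection, fell from 493 and 445 FPKM to 23.6. Against this, abf-2, an antibacterial factor of the defensin kind, rose from 18.6 and 20.6 FPKM to 921. C-type lectins, carbohydrate-binding proteins many of which are secreted into the gut, rose in 14 of 63 kept genes and fell in 21, out of 248 symbols. The largest changes were clec-80, up from 3.56 and 3.02 FPKM to 78.1, and clec-50, down from 195 and 132 to 8.82, while the most abundant, clec-87, had 3415, 3312 and 3301. Transthyretin-related genes, encoding small secreted proteins, rose in 8 of 48 and fell in 13, with ttr-51 up from 1462 and 1278 FPKM to 8215 and ttr-31 down from 25.2 and 19.8 to 1.92. Of 7 dod genes, named for lying downstream of DAF-16, 2 rose and 2 fell, dod-24 with 10.0 and 8.21 FPKM and then 69.6 and dod-3 with 173, 184 and then 45.6. Of 9 secreted metalloproteases 1 rose and 2 fell.

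Neuropeptide, insulin and nuclear receptor genes rose more often than they fell. Of 62 FMRFamide-like and neuropeptide-like genes 21 rose (33.9%) and none fell, with a median of 0.83. This list leaves out the nlp genes that encode antimicrobial peptides, which were counted with the defence genes and of which nlp-24, nlp-25, nlp-26, nlp-29 and nlp-33 fell. Over all 38 kept nlp symbols 12 rose and 5 fell, and over 30 flp symbols 8 rose and none fell. The gene nlp-39 had 2.04 and 0.862 FPKM at Day 0 and 38.9 at Day 7, and flp-11, a neuropeptide known for promoting sleep, had 40.1, 40.5 and 124. The most abundant member, nlp-36, had 804, 634 and 822 FPKM and did not pass. General neuronal markers had a summed FPKM of 1019 and 1023 at Day 0 and 1431 at Day 7, and 0 of 7 were called, and their part in the rise of neuropeptide genes was not tested. Of 28 insulin-like peptide genes 10 rose (35.7%) and 2 fell. The gene ins-20 rose from 0.160 and 0.338 FPKM to 17.4, ins-10 from 2.83 and 4.98 to 65.5, and the most abundant, ins-34, from 38.7 and 30.5 to 99.8, while ins-12 fell from 7.56 and 7.66 to 0.310. With both Day 0 values under 1 FPKM, ins-20 was kept only through the Day 7 library, so it had to be higher there. The agonist ins-7, which rises in feedback loops of DAF-16, had 20.6, 13.6 and 14.4 FPKM.

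Of 13 genes of the insulin/IGF pathway below these peptides 1 rose (7.69%) and 2 fell (15.4%), against 16.8% and 10.1% of all genes. The receptor gene daf-2 had 31.8, 37.3 and 25.5 FPKM and the forkhead factor gene daf-16 had 61.9, 69.3 and 80.4, and neither passed. The kinase gene age-1 and the phosphatase gene daf-18, which act against each other on membrane phosphoinositides, fell together, age-1 from 33.5 and 35 FPKM to 15.2 and daf-18 from 298 and 318 to 140. The kinase gene akt-2 rose from 10.7 and 11 FPKM to 22.7, a call that was not made after quantile normalization, where 3 genes of the list fell. The stress factor gene skn-1 had 198, 211 and 219 FPKM.

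Of 159 nuclear hormone receptor genes 49 rose (30.8%) and 7 fell (4.4%), with a median of 0.62, and 36 rose and 12 fell after quantile normalization. After nhr-17, the next largest rise by the Day 0 mean was nhr-61, from 9.95 and 9.33 FPKM to 210. The falls included nhr-68 and nhr-114, both known from the response to low vitamin B12, nhr-68 from 107 and 77.1 FPKM to 8.17 and nhr-114 from 47.0 and 48.4 to 3.80. The lipid regulator nhr-49, the most abundant receptor after nhr-17, had 85.4, 98.9 and 111 FPKM and did not pass, and its partner nhr-80 fell from 10.6 and 9.70 to 3.60. F-box and Skp1-related genes, adaptors of ubiquitin ligases, rose in 75 of 246 kept (30.5%) and fell in 17, with 30 falls after quantile normalization. The largest rise was fbxa-163, from 0.591 and 0.526 FPKM to 18.4, and skr-5, a Skp1-related gene, rose from 3.50 and 2.38 to 30.5. Of these, fbxa-163 was kept only through the Day 7 library, so it had to be higher there. The housekeeping adaptor skr-1, the most abundant member that does not rest on short entries, had 514, 494 and 862 FPKM. The listed maximum, fbxa-55, with 1170 and 688 FPKM at Day 0 and 188 at Day 7, owed its call to short entries. The largest fall was fbxa-72, from 19.4 and 19.5 FPKM to 1.10.

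The same difference between days was read in mir-60;spe-9, whose libraries are separate from those of spe-9. Its Day 7 library was higher than both of its Day 0 libraries in 1871 of the 12395 genes (15.1%) and lower in 1630 (13.2%). In that Day 7 library 400 of the genes were listed at an exact 0, among them asp-6, hsp-17, oma-2, vha-3 and the RNA polymerase II gene ama-1, which every cell uses. Over the 12395 genes the response to Day 7 differed between the strains in 476 (3.84%) at a limma adjusted p under 0.05. Of these, 344 had an exact 0 in a mir-60;spe-9 library. Leaving out the 423 genes with such a 0, a choice made after the values were seen, left 11972 genes, of which 1 (0.00835%) differed. That gene was F26E4.14, whose values come from its entry of 109 bases. With 1 Day 7 library per strain and 2 residual degrees of freedom, the test could miss differences. A count of 1 therefore does not show that the strains responded alike. At an unadjusted p under 0.05 there were 1353 genes.

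Among these 11972 genes spe-9 was higher at Day 7 in 2042 (17.1%) and lower in 1217 (10.2%), and mir-60;spe-9 was higher in 1852 (15.5%) and lower in 1235 (10.3%). Higher in both strains were 1552 genes, 76.0% of those of spe-9 and 83.8% of those of mir-60;spe-9. Lower in both were 898 genes, 73.8% and 72.7% of the calls of each strain, and 8 genes were called in opposite directions. Across genes, which are not independent replicates and share these libraries, the log2 differences of the strains had a Pearson correlation of 0.92 and a Spearman correlation of 0.906. Over all 12395 genes, those with an exact 0 included, the Pearson correlation was 0.706, and 64 genes higher in spe-9 were lower in mir-60;spe-9, against 4 without them. The median of the hsp-16 genes was 6.32 in spe-9 and 6.12 in mir-60;spe-9, that of the cuticle collagens was -2.51 and -2.55, and that of the neuropeptide genes 0.83 and 0.61. Major sperm protein genes had medians of 0.34 and -1.71, with sums of 218 and 140 FPKM in the mir-60;spe-9 Day 0 libraries and 52.4 at Day 7, beside 40.5, 39.5 and 63.3 in spe-9. Values farther apart were those of nhr-17, with 10.9 and 11.6 FPKM at Day 0 and 347 at Day 7 in mir-60;spe-9 against 1350 at Day 7 in spe-9, and of lys-7, with 53.1 and 45.9 and then 1019 in mir-60;spe-9 against 1136 at Day 7 in spe-9. For lys-7 the strains were near each other at Day 7 and apart at Day 0.

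**Figure D5:**
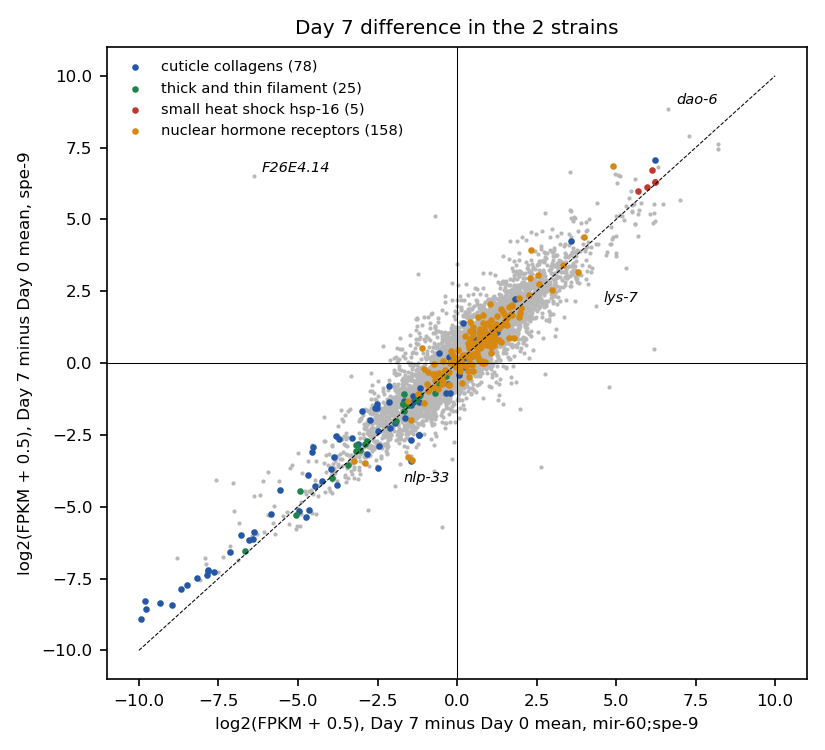
Difference between Day 7 and the mean of the Day 0 libraries on the log2(FPKM + 0.5) scale in spe-9 (vertical) and mir-60;spe-9 (horizontal) for the 11972 genes without an exact 0, with the dashed line of equal differences and 4 gene lists in colour. The points follow the line with a Pearson correlation of 0.92, and F26E4.14 stands apart at the upper left.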

How the data were processed

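Whole-body RNA was sequenced from 7 libraries (14 sequencing samples), of which the 2 spe-9 Day 0 libraries and the spe-9 Day 7 library carry the comparison. Per the labels, total RNA was taken with mirVana and libraries were made with a stranded poly-A kit. The authors' processing notes list bcl2fastq 2.17.1.14, Bowtie2 2.1.0, TopHat2 2.1.0, Cufflinks 2.2.1, Cuffdiff and DESeq, with the WS220 genome. The deposited values are FPKM per RefSeq transcript, with both runs of a library merged by the authors. All columns of values matched a library.

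FPKM was summed over the transcripts of a symbol. Genes were kept with a longest transcript of 200 bases or more, an average of 1 FPKM or more across the 3 libraries and no exact 0. Differences were taken on log2(FPKM + 0.5). The test was limma 3.58.1 in R 4.3.3 with a variance trend, on 7 libraries in 5 groups with 2 residual degrees of freedom, two-sided, with Benjamini-Hochberg adjustment over the 12395 genes. The script was tested on simulated data. FPKM carries no read totals. Relative depth was read from low values, and the read totals that the study lists were not used here.

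The named genes are the 15 largest rises and falls, the 10 with the highest mean FPKM and, in the lists, members with the highest mean FPKM, with large differences or with a textbook role. The members and lists were chosen with earlier results of these data known. Promoter motifs were planned but not analysed here. Tools beside limma were Python 3.11.15, pandas 2.3.3, NumPy 2.4.6 and Matplotlib 3.10.9. Alternatives covered the pseudocount, the filters, the fold, centring, quantile normalization, the transcript used, the model and each Day 0 library left out.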

Additional observations from a re-analysis of the deposited data

Results flagged for a closer look

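Among the genes named in the report and without an exact 0 in a mir-60;spe-9 library, 20 had a Day 7 response that differed between the strains at a limma adjusted p under 0.05 over 12395 genes. The response of spe-9 minus that of mir-60;spe-9, on the log2 scale, was 12.89 for F26E4.14, 3.09 for B0205.14, 2.84 for fat-7, 2.57 for ugt-21 and 2.22 for pgp-9. It was 1.99 for ilys-5, 1.97 for nhr-17, 1.64 for C54F6.17, 1.59 for cpr-1 and 1.25 for fat-2. It was 1.21 for col-20, 1.19 for fat-6, 1.15 for tbx-37, 1.13 for grd-5, 1.02 for gst-1 and 0.91 for sqst-1. It was below 0 for hrg-6, nlp-33, lys-7 and ftn-1, at -5.23, -2.34, -2.36 and -0.86. When the 423 genes with an exact 0 were left out of the fit, only F26E4.14 kept an adjusted p under 0.05. Each arm has 1 Day 7 library.

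The genes left out of the comparison for an exact 0 numbered 76, and 5 of them reached at least 100 FPKM in another library. At Day 7 in spe-9 vit-5 was listed at 2030 FPKM, vit-6 at 891 and vit-4 at 331, and all 3 were listed at 0 in both Day 0 libraries. C54F6.18 was listed at 162 FPKM and ZK185.9 at 101, each at 0 in 1 Day 0 library. In mir-60;spe-9 vit-4 was listed at 1736 and 1987 FPKM at Day 0 and at 259 at Day 7, the opposite order.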

How the results depend on the processing

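Higher and lower genes numbered 3361 and 2435 at 1.5-fold and 701 and 412 at 4-fold, and 3174 rose and 2319 fell at 1.5-fold, 700 and 409 at 4-fold. With a mean FPKM of at least 10, 994 of 8077 genes were higher and 770 lower, and 985 rose and 765 fell. The response difference between strains went from 476 genes to 1 without genes at an exact 0. The median of the vitellogenins turned from below 0 to 9.37 with such genes kept. In a model of strain plus day, asp-6 was at -4.30 and hsp-17 at -1.84, both listed at 0 in mir-60;spe-9 at Day 7, and the calls of F26E4.14, clec-80, fat-2, hrg-6, ilys-3, ins-12, msp-142 and pgp-9 were lost. F26E4.14 was at -0.46 without entries under 200 bases. The last alternative and the removal of exact 0 values between strains were chosen after seeing the data. Without the first Day 0 library of spe-9 2408 genes rose and 1335 fell. Calls for hsp-60 and trxr-1 were lost with the most abundant transcript alone, and that for syp-1 with median centring. Over all named genes and lists and all alternatives, 4491 values counted as the same, 84 lost a call, 17 gained one, 71 medians moved and 4 values reversed. A gene counted as the same if its call stayed, and a list median if it shifted by less than 0.14. Uncalled genes and medians near 0 could therefore change sign and still count as the same. The causes were not tested. No paired analysis was possible because the Day 7 libraries carry no replicate number. With 1 Day 7 library, the spread between Day 7 cultures was not measured, and low FPKM values rest on few reads.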

Other observations

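Groups that no list of the report holds were looked at after the values were seen, so they are given as values without a test. The background shares are again 16.8% of all genes risen and 10.1% fallen. Histone genes, symbols his, stood out by their counts. Of 58 kept, 43 rose and 1, his-24, fell, with a median log2 difference of 2.02 in spe-9 and 1.95 in mir-60;spe-9, and with 41 rises after quantile normalization. Their summed FPKM was 3924 and 3541 at Day 0 and 9224 at Day 7. Histone genes are near-identical copies of each other, so values of single copies are uncertain. Some, such as his-51 and his-53 or his-58 and his-66, have the same FPKM in every spe-9 library. The number of rises is therefore not a number of separate observations. The libraries were made with a poly-A kit, and its capture of histone and noncoding RNA was not measured. The linker histone gene his-24 had 415 and 294 FPKM at Day 0 and 144 at Day 7. Entries that the RefSeq table types as noncoding RNA rose in 31 of 76 and fell in 2, with a median of 1.13, and long noncoding RNA in 12 of 37 with 2 falls. Globin genes, symbols glb, rose in 11 of 22 and fell in none, with a median of 1.22. Of 11 kept fipr genes, fungus-induced peptide relatives, 8 fell and 1 rose.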
